A study of Mus musculus with 15 samples.

Results

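A set of 1656 genomic regions carried H3K27ac, an acetylation of histone H3, in both kinds of mouse expanded potential stem cell (EPSC) that were profiled and not in embryonic stem cells (ESCs). These EPSC-shared regions were selected on the H3K27ac peak lists themselves: overlapping or touching peaks of the 3 states were joined, and a joined region was kept when it held a peak of D-EPSCs and a peak of L-EPSCs and no peak of ESCs. They made up 2.35% of all 70360 joined H3K27ac regions. Regions in all 3 states numbered 14972, those of D-EPSCs alone 4243, those of L-EPSCs alone 1951 and those of ESCs alone 37735. Because that rule used H3K27ac, its values are given below as description, and comparisons were made on measures that the rule did not use: H3K4me1, gene annotation and genome sequence. The exception is the study's own gene lists, which were built in part from H3K27ac of these states.

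Chromatin immunoprecipitation sequencing of H3K27ac and H3K4me1 was available for 3 states of J1 cells, a 129SV mouse line, each mark in 2 samples of a state beside 1 input (15 samples). All 3 states were grown with LIF and the GSK3 inhibitor CHIR99021. ESCs were kept in medium with fetal bovine serum and the MEK inhibitor PD0325901 (the 2 inhibitors together are called 2i). D-EPSCs (Deng_EPS in the labels) were kept in N2B27 with KnockOut serum replacement (KSR), dimethindene maleate (DiM) and minocycline hydrochloride (MiH). L-EPSCs (Liu_EPS) were kept in a KSR medium with PD0325901, the Src family inhibitor A-419259, the tankyrase inhibitor XAV939, JNK inhibitor VIII and the p38 inhibitor SB203580. According to the study's methods, both EPSC states were derived from the ESCs. All states thus share a parental line, and serum, base medium and inhibitors changed together between them. The deposited lists hold peak positions only, and each stands for a whole state and mark. Differences between them therefore have no replicate check, and read depth is unknown. Intervals are 95% Wilson intervals, which cover counting error only and treat regions as independent.

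H3K27ac is laid down by the acetyltransferases p300 and CBP and marks promoters and enhancers in use. H3K4me1 covers enhancers, with or without acetylation, and flanks the start sites of active genes while the start site itself carries H3K4me3. A distal region with H3K4me1 but no H3K27ac is commonly called primed, and one with both marks is called active. EPSCs are stem cells cultured to contribute to extraembryonic as well as embryonic lineages.

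The ESC H3K27ac list was the longest, with 64342 peaks against 32782 in D-EPSCs and 26966 in L-EPSCs, while the H3K4me1 lists held between 102751 and 107222 peaks. Peaks within EPSC-shared regions were 5.12% of the D-EPSC list (1678 peaks) and 6.33% of the L-EPSC list (1707 peaks). The count depended on list length: with every list cut to equal numbers of its widest peaks, 4274 of 39710 regions (10.8%) met the same rule. As a check of cell identity, the start sites of Pou5f1, Sox2 and Nanog carried H3K27ac in all 3 states, and no EPSC-shared region lay within 10 kb of these genes.

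The sequences at the middle of 6 of the regions are shown as examples and do not stand for the set. The first group is from the widest regions (by the worse rank of the D-EPSC and L-EPSC peak) with no ESC H3K27ac within 10 kb, and each is named by the nearest protein-coding start site. All are 300 bases of the plus strand of mm9, 5′ to 3′, with every CG in capitals.
Near Akr1c21, chr13:4560568-4560867: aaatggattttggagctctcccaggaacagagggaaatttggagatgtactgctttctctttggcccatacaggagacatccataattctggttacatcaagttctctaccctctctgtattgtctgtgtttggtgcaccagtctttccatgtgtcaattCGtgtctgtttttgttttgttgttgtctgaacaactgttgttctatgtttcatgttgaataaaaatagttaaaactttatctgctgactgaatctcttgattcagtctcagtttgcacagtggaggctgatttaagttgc
Near Sema3e, chr5:13982641-13982940: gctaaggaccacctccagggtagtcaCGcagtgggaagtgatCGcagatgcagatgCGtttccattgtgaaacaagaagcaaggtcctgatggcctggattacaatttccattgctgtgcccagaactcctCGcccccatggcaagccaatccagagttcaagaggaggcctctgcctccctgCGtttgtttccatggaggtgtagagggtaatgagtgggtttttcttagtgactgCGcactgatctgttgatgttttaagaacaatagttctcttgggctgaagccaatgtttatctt
Near Gm382, chrX:123626944-123627243: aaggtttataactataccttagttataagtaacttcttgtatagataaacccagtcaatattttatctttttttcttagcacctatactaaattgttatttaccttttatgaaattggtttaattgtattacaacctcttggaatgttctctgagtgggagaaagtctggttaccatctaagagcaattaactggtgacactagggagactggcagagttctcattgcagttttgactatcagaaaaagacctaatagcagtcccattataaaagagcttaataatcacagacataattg
The second group is from the widest regions that came within 1 kb of a start site.
Zic5, chr14:122867716-122868015: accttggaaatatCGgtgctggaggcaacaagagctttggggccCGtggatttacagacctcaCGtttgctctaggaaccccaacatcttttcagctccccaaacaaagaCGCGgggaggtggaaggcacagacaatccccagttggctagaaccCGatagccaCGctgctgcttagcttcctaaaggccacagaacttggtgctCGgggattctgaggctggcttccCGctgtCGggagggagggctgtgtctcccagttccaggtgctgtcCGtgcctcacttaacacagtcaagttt
Ralgds, chr2:28369785-28370084: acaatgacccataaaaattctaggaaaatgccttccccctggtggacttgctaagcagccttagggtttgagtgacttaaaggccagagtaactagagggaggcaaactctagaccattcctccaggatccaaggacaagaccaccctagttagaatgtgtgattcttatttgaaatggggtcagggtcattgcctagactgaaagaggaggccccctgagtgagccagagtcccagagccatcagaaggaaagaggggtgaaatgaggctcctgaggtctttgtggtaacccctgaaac
Ripply1, chrX:136316944-136317243: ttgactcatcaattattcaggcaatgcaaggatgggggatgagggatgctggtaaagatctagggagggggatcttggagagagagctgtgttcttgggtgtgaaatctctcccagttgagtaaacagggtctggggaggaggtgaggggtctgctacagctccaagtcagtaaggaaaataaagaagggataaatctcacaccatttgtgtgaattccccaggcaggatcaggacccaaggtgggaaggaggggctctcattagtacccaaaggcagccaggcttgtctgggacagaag
The 3 distal sequences held 1, 6 and 0 CG. The Zic5 sequence held 11 CG, and those of Ralgds and Ripply1 none, although most regions at start sites were rich in CG, as described further on.

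A region was counted at a start site when it overlapped the window of 1 kb on either side of the 5′ end of a protein-coding gene. By this measure 657 EPSC-shared regions were at a start site, 39.7% (37.3 to 42.1), against 12.9% of all joined regions. The share was also above that of regions in all 3 states (32.4%, 31.7 to 33.2), of D-EPSCs alone (18.2%, 17.0 to 19.4), of L-EPSCs alone (6.87%, 5.83 to 8.08) and of ESCs alone (4.21%, 4.01 to 4.42). The other 999 regions lay away from start sites. Of these, 604 (60.5%) were outside protein-coding genes, 277 in introns and 118 overlapped an exon, and their median distance to a start site was 50901 bp against 25286 bp for all regions away from start sites.

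**Figure D1:**
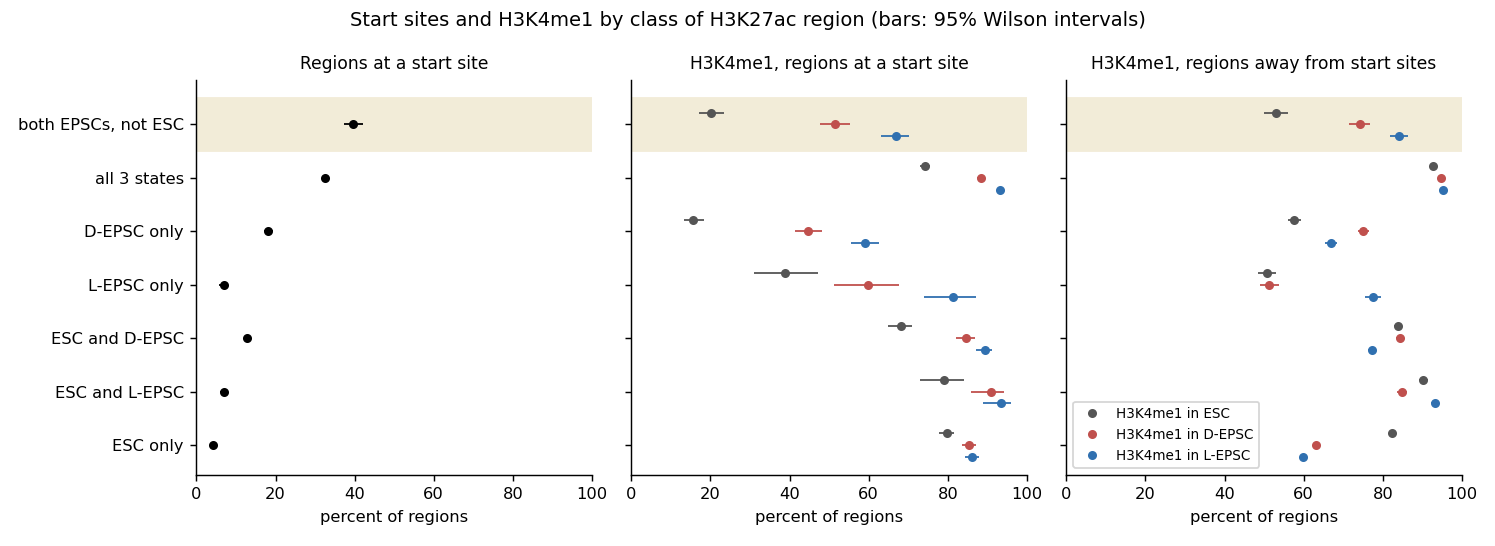
Share of regions at a start site (left), and share with H3K4me1 among regions at a start site (middle) and away from start sites (right), for the 7 classes of H3K27ac region; points are percent of regions and bars 95% Wilson intervals. In the shaded row of EPSC-shared regions, 39.7% were at a start site, and H3K4me1 was least frequent in ESCs and most frequent in L-EPSCs in both places.

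H3K4me1 overlapped fewer EPSC-shared regions in ESCs than in either EPSC. ESCs had it at 662 regions (40.0%, 37.6 to 42.4), D-EPSCs at 1080 (65.2%, 62.9 to 67.5) and L-EPSCs at 1280 (77.3%, 75.2 to 79.2). Over all joined regions the order was the opposite, from 79.6% for ESCs to 73.1% for D-EPSCs and 72.3% for L-EPSCs. The order of the states was not particular to the set, however. At start sites all joined regions had H3K4me1 least often in ESCs (65.3%), then in D-EPSCs (80.8%) and L-EPSCs (86.6%), and with lists of equal length all regions had that order too, at 81.6%, 83.7% and 85%. H3K4me1 in both EPSCs and not in ESCs was seen at 401 EPSC-shared regions (24.2%, 22.2 to 26.3) against 4.34% of all regions. Counting an H3K4me1 peak within 1 kb, the share of the EPSC-shared regions was 12.1% (10.7 to 13.8), and that of all regions was not computed. A further 646 (39.0%) had H3K4me1 in all 3 states, 224 (13.5%) in L-EPSCs alone, 28 (1.69%) in D-EPSCs alone and 341 (20.6%) in no state. H3K4me1 in ESCs alone was found at 2 regions (0.121%). Over all joined regions these shares were 61.6% for all 3 states, 2.58% for L-EPSCs alone and 1.07% for D-EPSCs alone. They were 12.4% for no state and 8.15% for ESCs alone.

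The place of a region divided these patterns. Away from start sites, 515 of 999 regions (51.6%) had H3K4me1 in all 3 states, so that ESCs had an H3K4me1 peak where no H3K27ac peak was called. With or without the EPSCs, ESCs had H3K4me1 at 53.1% of the 999, below the 81.7% of all regions away from start sites. A further 207 (20.7%, 18.3 to 23.3) had it in both EPSCs and not ESCs, against 2.66% of all regions away from start sites and 2.64% of those in all 3 states. Nearer to the set were the regions of D-EPSCs alone (12.8%, 11.7 to 13.9) and of L-EPSCs alone (9.30%, 8.05 to 10.7) away from start sites. At start sites 205 of 657 regions (31.2%) had no H3K4me1 in any state, a share that was not computed for all regions at start sites. H3K4me1 in both EPSCs and not ESCs was seen at 194 (29.5%, 26.2 to 33.1), against 15.7% of all regions at start sites. The share was 26.6% (23.6 to 29.8) at start-site regions of D-EPSCs alone and 22.4% (16.2 to 30.2) at those of L-EPSCs alone, with intervals that overlap that of the EPSC-shared regions. The mark was rarely far from these start sites in any state: counting an H3K4me1 peak within 1 kb, 94.4% of the regions at start sites had one in ESCs and 99.2% in either EPSC. All regions at start sites were close to this, at 97.2% in ESCs and 98.7% in either EPSC. Away from start sites the same measure gave 63.4%, 80.8% and 88.4% (ESC, D-EPSC, L-EPSC), against 87.5%, 79.7% and 78.6% of all such regions.

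H3K4me1 had a different shape in the 2 places. At the middle of regions at a start site the ESC mark covered 4.87%, that of D-EPSCs 17.0% and that of L-EPSCs 30.4%, and it rose on both sides. The highest coverage in ESCs was 65.1% at 1.2 kb to the left and 64.4% at 1.3 kb to the right. In D-EPSCs it was 76.1% at 1 kb and 78.7% at 1.1 kb, and in L-EPSCs 80.1% and 79.5%, both at 0.8 kb. The gap in H3K4me1 over these start sites was thus widest in ESCs. Away from start sites H3K4me1 was centred on the region, with ESC coverage of 43.6%, D-EPSC coverage of 64.1% and L-EPSC coverage of 77.0%, and at 4 to 5 kb from the middle coverage was between 13.1% and 19.2% in all 3 states.

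**Figure D2:**
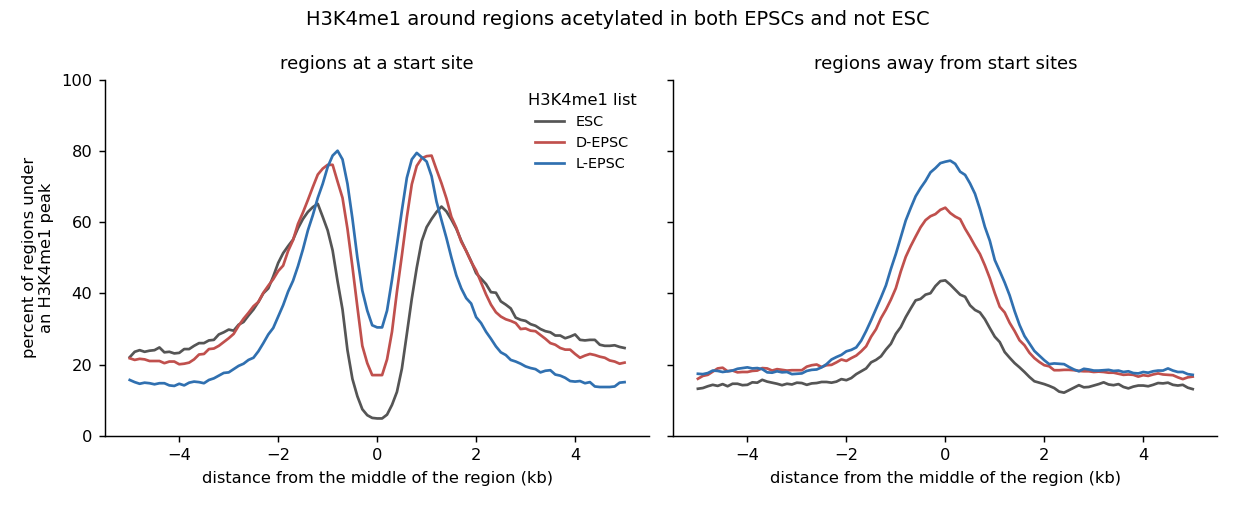
Percent of EPSC-shared regions covered by an H3K4me1 peak (y axis) at each distance from the middle of the region (x axis, kb), for 657 regions at a start site (left) and 999 away from start sites (right), 1 line per state. At start sites coverage dips at the middle and peaks at 0.8 to 1.3 kb on either side, and away from start sites it is highest at or next to the middle, in the order ESC, D-EPSC, L-EPSC.

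Base composition separated the regions at start sites from the rest. Their median GC content was 63.1% and their median ratio of observed to expected CpG 0.82, against 54.4% and 0.61 for all regions at start sites and 65.2% and 0.79 for those of D-EPSCs alone. A region was called CpG island-like when it spanned at least 200 bp with a GC content of at least 50% and a ratio of at least 0.6. This held for 559 of 657 regions at a start site (85.1%, 82.2 to 87.6). It held for 50.1% of start-site regions in all 3 states (48.7 to 51.5), for 74.6% of those in D-EPSCs alone (71.4 to 77.5) and for 13.4% of those in ESCs alone (11.8 to 15.2). Widths differed as well, since the median region at a start site spanned 710 bp here and 2055 bp in the class of all 3 states, and a wide region takes in flanking DNA. The part of width in the difference was not tested. Away from start sites the median GC content was 46.2%, near the 46.9% of all such regions, and 97 regions (9.71%) were CpG island-like against 1.30%.

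**Figure D3:**
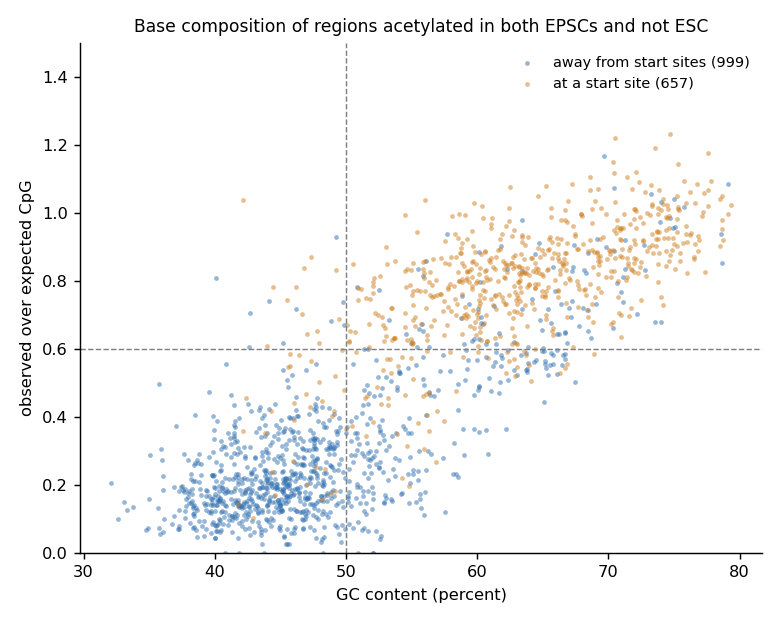
GC content (x axis, percent) against the ratio of observed to expected CpG (y axis) for the 657 EPSC-shared regions at a start site and the 999 away from start sites, 1 point per region; dashed lines mark the CpG island limits of 50% and 0.6. Most points at start sites lie in the upper right (85.1% of them met the limits with the length), and most others in the lower left.

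Motif letters were searched on both strands in the middle 500 bp of each region. The ETS letters CCGGAAGT, which factors such as GABPA bind at many housekeeping promoters, were present in 79 of 657 regions at start sites (12%, 9.76 to 14.7) against 5.80% of all regions at start sites. The AP-2 letters GCCNNNGGC were present in 299 (45.5%, 41.7 to 49.3) against 31.7%. Both sets of letters are rich in G and C, and so were these regions, and the part of base composition was not tested. Away from start sites the AP-1 letters TGANTCA were in 18.9% of regions (16.6 to 21.5) against 16.9% of all such regions, so that value lay within the interval. The Oct4 octamer ATTTGCAT was in 2.80% (1.95 to 4.02) against 2.66% and the Sox letters CATTGTT in 8.61% (7.02 to 10.5) against 7.77%. The Otx2 letters TAATCC were less frequent, in 14% (12 to 16.3) against 21.6%, and the Zic letters CCTGCTGG more frequent, in 6.21% (4.87 to 7.88) against 4.64%. A match marks letters in the window and not a bound site, and 21 motifs were searched.

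Genes with an EPSC-shared region at the start site numbered 759 of 22350 protein-coding genes, a background of 3.4%. For 667 of them (87.9%) the window of 1 kb on either side held no ESC H3K27ac at all, and for 92 (12.1%) it held some elsewhere. Over all protein-coding genes 35.7% had ESC H3K27ac at the start site. The low share here was in large part fixed by the rule, which kept only regions without an ESC peak. Gene families were counted by symbol after the regions had been seen, so their counts are descriptive. Mitochondrial ribosomal proteins had such a region at 14 of 77 start sites (18.2%), among them Mrps9, Mrpl44, Mrps23 and Mrpl2. The Timm subunits of the mitochondrial import translocases, which bring proteins into the inner membrane and matrix, had one at 6 of 12: Timm50, Timm13, Timm22, Timm23, Timm17b and Timm8a1. The share was 15.1% for DEAD/H-box RNA helicases (8 of 53) and 13.5% for proteasome genes (7 of 52, Psmd14 being listed under 2 identifiers). It was 12.3% for symbols of translation initiation factors (7 of 57, Eif2ak4 among the 7). For symbols of oxidative phosphorylation it was 10.0% (10 of 100, Cox10 and Atp5sl among the 10). Symbols do not separate the factors or subunits themselves from related genes such as these. Cytoplasmic ribosomal proteins had none at 73 start sites, and 71 of those start sites already carried H3K27ac in ESCs. In contrast, ESC H3K27ac was present at 44 of the 77 mitochondrial ribosomal start sites, D-EPSC at 61 and L-EPSC at 49. For the Timm subunits the counts in ESCs, D-EPSCs and L-EPSCs were 5, 10 and 10. They were 29, 40 and 30 for helicases and 34, 42 and 33 for proteasome genes. For initiation factor symbols they were 40, 47 and 38, and for oxidative phosphorylation symbols 69, 74 and 66. In the helicase, proteasome, initiation factor and oxidative phosphorylation families the L-EPSC count was thus close to the ESC count. The L-EPSC list, however, marked fewer start sites of all protein-coding genes, 28.8% against 35.7% (ESC) and 35.3% (D-EPSC). Relative to those shares, L-EPSC stood higher than ESC in these families. All the families with counts by state here were above the all-gene share in every list, the lowest being 41.7% for Timm subunits in ESCs (5 of 12). Zinc finger Zfp genes were at 3.23% (12 of 371) and olfactory receptors at 0.0898% (1 of 1113).

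The widest start-site regions belonged to developmental regulators as well as to genes of general use. At Chd7, which encodes a chromatin remodeller of developmental enhancers, the D-EPSC peak spanned 2119 bp and the L-EPSC peak 1954 bp, and the nearest ESC H3K27ac peak was 11852 bp away. H3K4me1 covered none of this region in ESCs or L-EPSCs and 50 bp in D-EPSCs, with peaks on either side in all 3 states. At Zic5 (chr14:122865724-122869010), a zinc finger gene arranged head to head with Zic2, the D-EPSC peak spanned 3287 bp and the L-EPSC peak 1991 bp. The whole Zic5 region was under H3K4me1 in all 3 states, and ESC H3K27ac peaks lay close by, the nearest at 1275 bp. The region was 825 bp from the Zic5 start site. That ESC peak lay on the other side of the start site, closer to it than the region and within the same window of 1 kb. At Ripply1 (chrX:136316274-136318717), a transcriptional corepressor of somite formation, the peaks were 2444 bp and 1627 bp wide and no ESC H3K27ac peak was nearer than 421797 bp. Ralgds, an exchange factor for the GTPase Ral, had peaks of 2245 bp and 2980 bp. Others among the 12 widest included Wbp11, Zfp516, Gcfc1, Arf2, Fam32a and Akap11.

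Away from genes, the widest region with no ESC H3K27ac within 10 kb lay on chromosome X, 60891 bp from the start site of 4930524E20Rik. Its D-EPSC peak spanned 9076 bp and its L-EPSC peak 7811 bp, H3K4me1 covered 4316 bp in D-EPSCs, 7115 bp in L-EPSCs and 0 bp in ESCs, and the nearest ESC H3K27ac peak was 2241632 bp away. The region 9836 bp from Akr1c21, a hydroxysteroid dehydrogenase gene of the aldo-keto reductase family, had peaks of 5289 bp and 5392 bp and 3179 bp of H3K4me1 in ESCs. The region 39192 bp from Sema3e, a secreted semaphorin, had peaks of 6452 bp and 4340 bp and 4615 bp of H3K4me1 in ESCs. A region 50292 bp from Gm382 on chromosome X had peaks of 4290 bp and 4582 bp and no ESC H3K4me1. ESC H3K4me1 was thus absent from some of the widest distal regions and covered most of others.

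The widest regions with H3K4me1 in both EPSCs and not ESCs were all distal. Besides those near 4930524E20Rik and Gm382, they lay 354371 bp from Dync2h1 (8790 bp wide), 186362 bp from Gm5538 (4531 bp) and 702912 bp from Pou3f2 (4276 bp). The widest regions with H3K4me1 in no state were narrower, between 1072 and 1295 bp, and of mixed place: at the start sites of Fam103a1 and Smad2, the signal transducer of Nodal and activin, in an intron of Pkhd1, and 119563 bp and 16466 bp from Abhd5 and Sstr5. The Pkhd1 region holds the repeated sequence described further on.

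**Figure D4:**
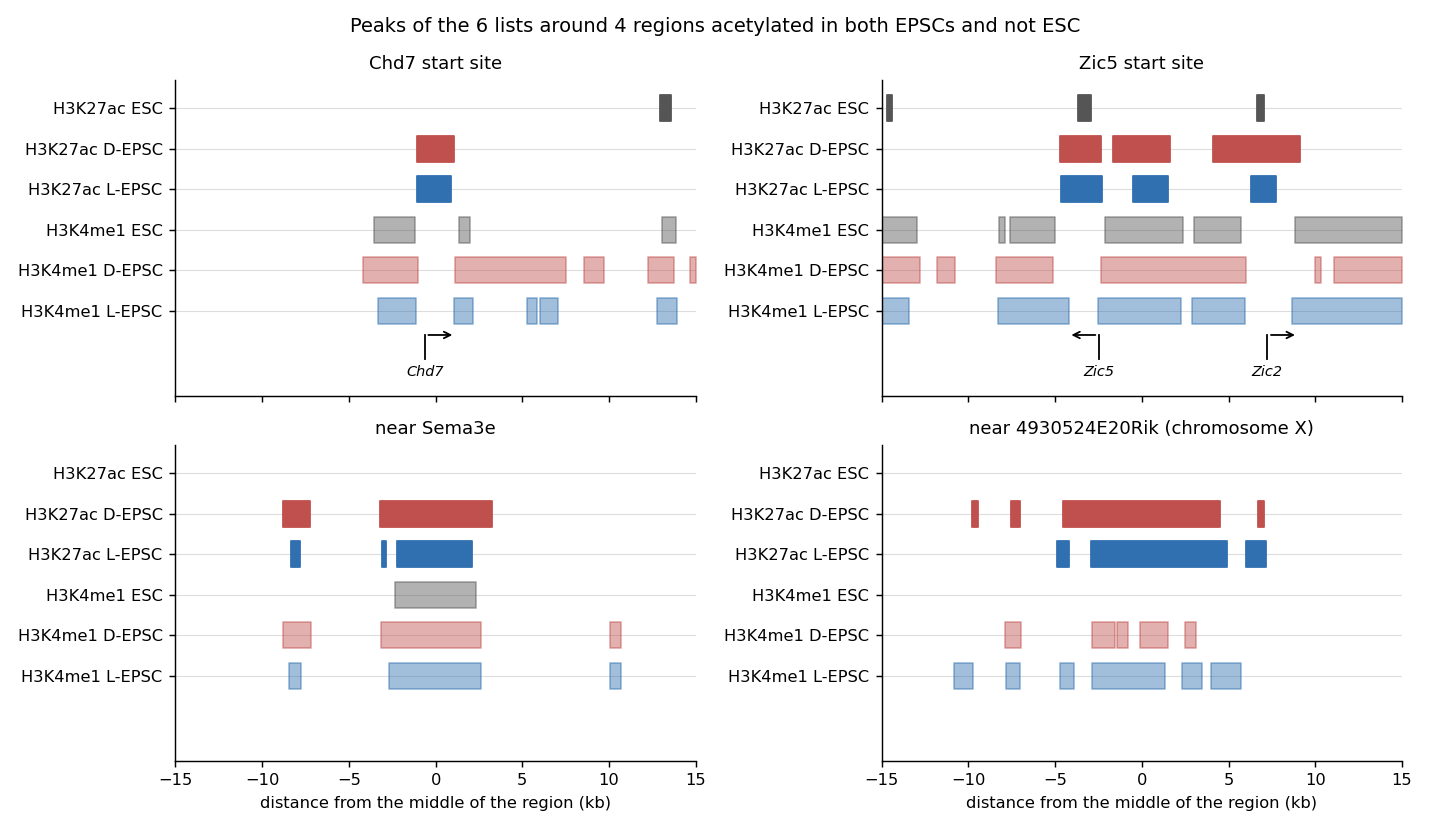
Peaks of the 6 lists (rows) within 15 kb of the middle of 4 EPSC-shared regions (x axis, distance from the middle in kb); bars are peaks and arrows protein-coding start sites with their direction. The acetylated bar at the middle is present in D-EPSCs and L-EPSCs and not in ESCs in all 4 panels, Zic5 has ESC acetylation nearby, and the region near 4930524E20Rik has no ESC peak of either mark.

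Within the EPSC-shared regions, 1588 were made of 1 D-EPSC and 1 L-EPSC peak. The D-EPSC peak had a median width of 657 bp and the L-EPSC peak of 501.5 bp, and the D-EPSC peak was the wider in 1082 (65.3%). Across regions the widths had a Spearman correlation of 0.42 (n = 1656, both widths chosen by the rule to be above 0), and the bases under both peaks had a median of 56.0% of the region. The set also shaded into its neighbours. The median distance to an ESC H3K27ac peak was 11532 bp, 778 regions (47.0%) had one within 10 kb and 220 (13.3%) within 1 kb. Just inside the rule were regions near Stk30, Rtp2, Prepl, Glipr2 and Calm2, whose ESC peaks ended 4 to 16 bp away. Just outside were regions of all 3 states near Dgkd, Rsu1, Impad1, Gm11145 and Snrnp27 with 210 bases of ESC peak.

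A repeated sequence recurred among the distal regions. When the regions were compared with each other, the one with the most partners (chr5:36581340-36582183, 844 bp) shared at least 300 aligned bases at 85% identity or more with 38 others. It was made of 3.98 copies of a unit of 212 bases, each about 97% identical to the next, and the first unit is shown with the letters GCCATCTT, which the factor YY1 recognises, in capitals.
Repeat unit, chr5:36581340-36581551, plus strand: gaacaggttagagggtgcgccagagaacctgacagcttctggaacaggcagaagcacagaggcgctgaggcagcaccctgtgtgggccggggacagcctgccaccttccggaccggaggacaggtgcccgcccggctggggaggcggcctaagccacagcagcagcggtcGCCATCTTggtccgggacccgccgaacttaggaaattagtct
Tandem units of this kind form the promoter of young L1 retrotransposons in mice. No repeat annotation was used, so the family was not assigned. At least 200 aligned bases of the sequence were found in 61 EPSC-shared regions on 19 chromosomes, all away from start sites. That is 6.11% of the 999 (4.78 to 7.77) against 0.501% of all regions away from start sites, 1.38% of those in all 3 states (1.17 to 1.63) and 0.0360% of those of ESCs alone (0.0210 to 0.0615). H3K4me1 was absent from 50 of the 61 in every state, which makes them a large part of the 136 distal EPSC-shared regions without H3K4me1, and it was present in ESCs at 0, in D-EPSCs at 1 and in L-EPSCs at 10.

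Counted over all 3149 copies in the genome rather than over regions, the H3K27ac lists differed less. ESC peaks lay on 262 copies (8.32%, 7.41 to 9.34), D-EPSC peaks on 301 (9.56%, 8.58 to 10.6) and L-EPSC peaks on 334 (10.6%, 9.58 to 11.7), so the ESC list marked such copies too, 140 of the regions with the sequence being acetylated in all 3 states. H3K4me1 separated the states further, with 4 ESC copies (0.127%), 36 of D-EPSCs (1.14%) and 213 of L-EPSCs (6.76%, 5.94 to 7.69). Reads from near-identical copies cannot be placed with certainty, and how the aligner's choice among copies entered these lists was not tested. More broadly, 68 EPSC-shared regions (4.11%, 3.25 to 5.17) were made mostly of 31-mers that occur at least 10 times in mm9, against 1.02% of all regions. The share was 3.74% (2.99 to 4.68) for regions of L-EPSCs alone, an overlapping interval, and 2.10% (1.71 to 2.57) for those of D-EPSCs alone. Away from start sites it was 6.81% (5.40 to 8.54) for EPSC-shared regions and 3.96% (3.16 to 4.96) for those of L-EPSCs alone.

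**Figure D5:**
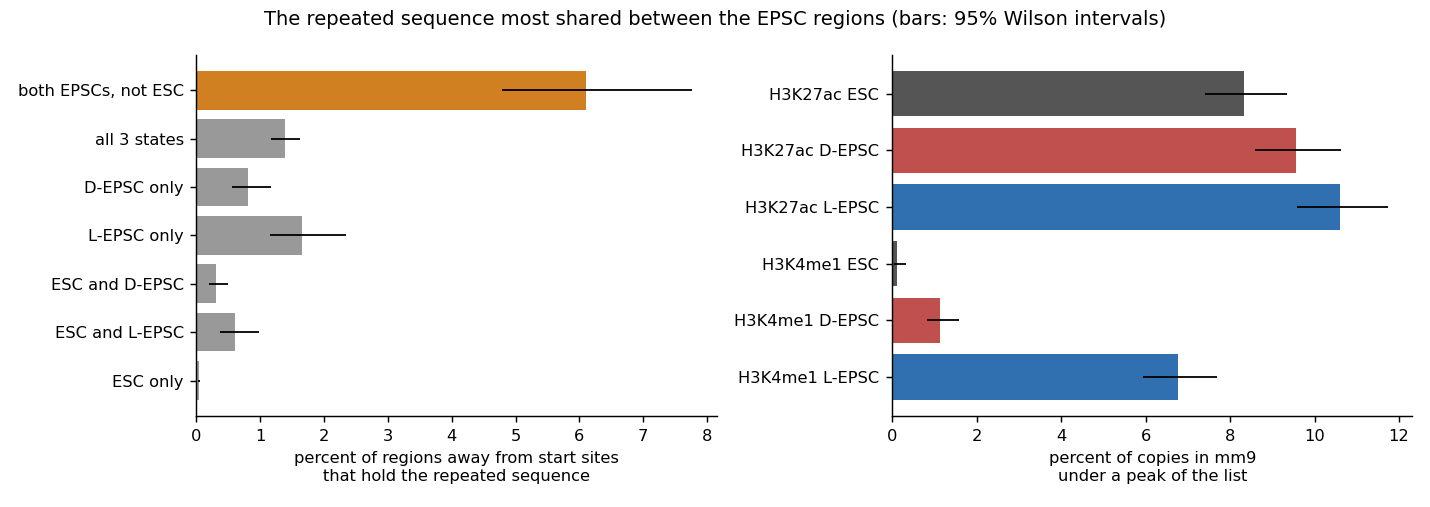
Left, percent of regions away from start sites that hold the repeated sequence, by class of H3K27ac region; right, percent of its 3149 copies in mm9 that lie under a peak of each list; bars with 95% Wilson intervals. EPSC-shared regions hold it most often (6.11%), while the 3 H3K27ac lists cover 8.32% to 10.6% of copies and H3K4me1 covers 6.76% in L-EPSCs and 0.127% in ESCs.

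Genes were also read by function, counting a gene when an EPSC-shared region lay in it or within 10 kb, which held for 1556 of 22350 genes (6.96%). Assignment was by position alone. None of 21 genes of core and naive pluripotency had such a region, nor of 21 gastrulation genes, 13 LIF and STAT3 genes or 19 genes of the 2-cell stage. The intervals were 0 to 15.5% for the pluripotency and the gastrulation genes. They were 0 to 22.8% for LIF and STAT3 genes and 0 to 16.8% for genes of the 2-cell stage. All include the 6.96% background, so lists this short cannot show a lack of such regions. Among formative epiblast genes 3 of 15 had a region: Zic5, Zic2 and the de novo DNA methyltransferase Dnmt3a. Zic2 and Zic5 were counted for the same region. The Dnmt3a region was 3940 bp wide, 79382 bp from the start site inside the gene, and H3K4me1 covered 3716 bp of it in ESCs and all of it in both EPSCs. Its D-EPSC peak spanned the 3940 bp, while its L-EPSC peak spanned only 219 bp. With lists this short the intervals are wide, here 7.05% to 45.2%.

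Several lineage genes had regions with H3K4me1 in ESCs. Upstream of the trophoblast factor Tfap2c, a region of 3438 bp was under H3K4me1 in all 3 states and had no ESC H3K27ac within 13187 bp. The D-EPSC peak there spanned 3438 bp and the L-EPSC peak 489 bp. Gata3, a trophoblast factor, and Gata4, a factor of primitive endoderm, had regions of 591 bp and 899 bp under H3K4me1 in all 3 states. The Gata3 region lay only 938 bp from an ESC H3K27ac peak and nearer to the start site of 4930412O13Rik. The Gata4 region overlapped the start site of Neil2. Lrp2, the endocytic receptor megalin, had 2 regions of 1960 bp and 1465 bp in its introns, with H3K4me1 over 1111 bp and 839 bp in ESCs and over their whole length in both EPSCs. In all, 2 of 17 trophoblast genes and 3 of 17 primitive endoderm genes had a region, with intervals of 3.29% to 34.3% and 6.2% to 41.0%, which include the background.

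The shares of FGF and Wnt genes had intervals that include the 6.96% background. In the FGF and ERK list 3 of 30 genes had a region (10.0%, 3.46 to 25.6): Fgf2 at its start site (343 bp, no H3K4me1 in any state), the ERK phosphatase gene Dusp5, and Fgfr2, whose annotated span of 3029 kb with its flanks takes in 4 regions that lie nearer to other genes. The Fgf2 region overlapped the start site of Bbs12 and was also within 1 kb of that of Cetn4, so it cannot be credited to Fgf2 alone. In the Wnt list 3 of 26 had one (interval 4.00% to 29.0%), with Znrf3, a ligase that removes Frizzled receptors, and the tankyrase Tnks at their start sites. Among retinoic acid genes it was 5 of 22 (22.7%, 10.1 to 43.4), among them the receptor Rarb with 2 regions of 2995 bp and 1033 bp, the homeobox cofactor Meis1 with a region of 1758 bp in an intron, the receptor Rxrb, and (named after its values were seen) Dhrs3, which reduces retinaldehyde. The wider Rarb region had a D-EPSC peak of 2995 bp and an L-EPSC peak of 514 bp, and the narrower one had peaks of 670 bp and 1033 bp. At Meis1 the peaks spanned 1758 bp and 602 bp. The Rarb regions lay nearer to the start site of Top2b, and the Rxrb region was at the start site of Ring1, a polycomb gene. The letters AGGTCA repeated after 5 bases, a site of RAR-RXR receptors, were in none of the 1656 windows (0 to 0.231%). Over all regions they were in 37 of 70360 (0.0526%), a value within that interval. Exact letters this rare cannot show whether the set differs from all regions. Single start sites with a region included Pfkfb3 in glycolysis, Hdac5 among histone deacetylases and the imprinted gene Peg3. The Tnks, Pfkfb3 and Hdac5 regions lay only 850 bp, 410 bp and 294 bp from an ESC H3K27ac peak. The Peg3 region was 931 bp from the start site, with no ESC H3K27ac peak nearer than 69897 bp.

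The list of EPSC signature genes was chosen by the study with H3K27ac of these same states among its criteria, so its overlap with the set was largely fixed in advance and is given only as a description. Of its genes, 47 of 128 had a region (36.7%, 28.9 to 45.3), 19 of them at the start site. The ESC signature, chosen in the same way, had 7 of 83 (8.43%, 4.15 to 16.4). Among the EPSC signature genes the most covered bases were at Zfp521 with 5 regions and 7793 bases, Ldlrad3 with 2 and 6007 bases, Serpina3m with 2 and 5928 bases, and Pacs1 with 3 and 5396 bases. Zfp521, a zinc finger regulator of progenitor cells, had its regions in the gene body, with H3K4me1 in ESCs at 4 of 5. Serpina3m, a serine protease inhibitor, had its 2 regions upstream of the start site and no H3K4me1 in ESCs at either. The regions at Ldlrad3 and Pacs1 carried ESC H3K4me1 at 2 of 2 and 3 of 3.

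Only a minority of the set was grouped along the chromosome, since 328 regions (19.8%) had another within 50 kb, forming 145 chains. The largest chains had 5 members each, at Sfi1 over 34.8 kb and at Cuedc1 and Mrps23 over 105.7 kb, both on chromosome 11. At Sfi1, which lies at the first sequenced bases of the chromosome, none of the 5 had H3K4me1 in ESCs. A chain of 4 regions in 10.1 kb near Elovl4 on chromosome 9 (chr9:83596407-83606479) had no other H3K27ac region of ESCs inside it.

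Chromosome X held 82 of the regions, 4.95% (4.01 to 6.10) against 1.17% of all joined regions. With lists of equal length the share of the set was 2.92% (2.46 to 3.47), and the share over all regions was not computed for that setting. In the full lists it was also 2.92% (2.46 to 3.47) among the regions of D-EPSCs alone, but 1.03% (0.665 to 1.58) among those of L-EPSCs alone. Put the other way, 9.93% of H3K27ac regions on chromosome X (8.07 to 12.2) were EPSC-shared, and among autosomes the share ran from 1.37% on chromosome 15 to 3.54% on chromosome 18. Of the 82 regions 39 were at a start site. Their median distance to an ESC H3K27ac peak was 78249.5 bp against 10703 bp on autosomes, and 14 of the 32 regions more than 500 kb from any ESC H3K27ac peak were on chromosome X. The share of H3K27ac peaks on chromosome X was 0.995% for ESCs (0.921 to 1.07), 1.48% for D-EPSCs (1.36 to 1.62) and 1.13% for L-EPSCs (1.01 to 1.26), and for H3K4me1 it was 1.47%, 1.79% and 1.71%. Whether chromosome number or a difference in acetylation sets these shares cannot be told apart from peak lists.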

How the data were processed

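The authors sequenced 150 bp read pairs, aligned them to mm9 with Bowtie2 2.3.5, sorted them with SAMtools 1.10 and called broad peaks with MACS against input. Trim Galore 0.6.3 and FastQC 0.10.1 are in the submitters' processing notes. The deposited lists give peak positions (chromosome, start, end), which is another unit than counts or signal. The calling threshold, any filter on reads with several matches, and whether samples were pooled before calling are not given in the sources used here. Read depth is therefore unknown.

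Positions were compared with NCBIM37, which is mm9, and no peak passed a chromosome end. Peaks were joined into regions, and an overlap needed 1 bp. Genes were the 22350 protein-coding genes of GENCODE M1 on 20 chromosomes. Overlap code was tested on simulated lists. Named regions were the 12 widest with no ESC H3K27ac within 10 kb and the 12 widest at a start site (the text describes the first 4 of each, with the sequences of 3; some items are not reported here), the 5 widest with H3K4me1 in both EPSCs and not ESC, the 5 widest without H3K4me1, genes with at least 4 regions, and at most 4 genes of each of 18 lists by covered bases. Members, lists and rules were chosen with earlier results of these data known. The repeat analysis (BLAST+ 2.17.0, and 31-mers sampled every 25 bp) and the gene families were chosen after seeing the data. Python 3.11.15, numpy 2.4.6, scipy 1.17.1 and pysam 0.24.0 were used.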

Additional observations from a re-analysis of the deposited data

How the results depend on the processing

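Of 99 values over 14 results, recomputed under 15 other settings and 1 chosen after seeing the data, 47 stayed close to the reported value (counts within 1.5 times, shares and medians within the interval) and 52 moved. The settings without an ESC H3K27ac peak within 1 kb and chromosomes 1 to 19 moved none. Requiring no ESC H3K27ac within 10 kb left 878 regions near 698 genes, with H3K4me1 in ESCs at 37.6%, 33.6% at a start site, a median GC content of 50.6% and 7.40% on chromosome X. Peaks of at least 500 bp gave 1036 regions near 1011 genes, with H3K4me1 at 49.4%, 75.9% and 84.7% (ESC, D-EPSC, L-EPSC), a GC content of 50.0%, a width of 1267.5 bp and 3.47% on chromosome X. Lists of equal length gave 4274 regions near 4271 genes, with H3K4me1 at 49.8%, 72.8% and 81.6%, in both EPSCs and not ESCs at 22.1%, 45.7% at a start site, a GC content of 53.7%, a width of 990 bp and 2.92% on chromosome X. Over all regions of these equal lists H3K4me1 was at 81.6%, 83.7% and 85%, and 18.8% were at a start site, so ESCs were no longer the highest. Requiring D-EPSC and L-EPSC peaks to overlap by 50% of both left 957 regions near 983 genes, with H3K4me1 at 31.3%, 56.8% and 71.0%, 44.1% at a start site, a GC content of 56.1% and a width of 652 bp. Joining over 1 kb changed the width to 893 bp. Without regions of repeated sequence H3K4me1 was at 67.9% in D-EPSCs and 79.8% in L-EPSCs. An H3K4me1 peak within 1 kb gave 75.7%, 88.1% and 92.7%, and 12.1% in both EPSCs and not ESCs, while H3K4me1 over 50% of the bases gave 25.7%, 43.8%, 58.3% and 16.8%. A gene flank of 50 kb gave 3199 genes. Motif windows of 300 bp and 1000 bp gave 19% and 40.3% for AP-2, 9.24% and 24.6% for AP-1, 7.0% and 25% for Otx2 and 3.32% and 7.85% for ETS. In every setting H3K4me1 was least frequent in ESCs and most frequent in L-EPSCs.

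No paired analysis was possible because each deposited list stands for both samples of a state and mark, and leaving out a sample could not be run for the same reason. Numbers of regions depend on list length, which read depth and the calling threshold set in unknown measure. The 3 lists differ in length, so a region without an ESC peak is one where none was called, not one shown to lack acetylation. Intervals measure neither sample nor culture variation.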
